A study of Mus musculus with 48 samples.

Results

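PD-1 engagement at weak antigen doses was measured in 8 libraries of the DO11.10 T hybridoma, out of 26 libraries of this cell and 48 in the whole series. The libraries were chosen by their labels alone. Of the 8, 2 received 10 nM pOVA with PD-1 engagement, 2 received 10 nM pOVA without it, 2 received 1 nM pOVA with PD-1 engagement and 2 received 1 nM pOVA without it. Dose and replicate number pair each engaged library with an unengaged one, giving 4 pairs, 2 at each dose. DO11.10 is a mouse T cell hybridoma, labelled BALB/c x AKR/J, whose T cell receptor (TCR) recognises a peptide of ovalbumin (pOVA). It is 1 hybridoma line, fused to a dividing lymphoma cell, and so differs from a resting T cell. The sources used here do not say how PD-1 was engaged, what the unengaged cells met in its place or which cells presented the peptide. They also do not say how long the stimulation lasted or whether replicates were separate cultures. The p-values therefore measure a spread between libraries that may be technical. That spread was estimated over all 26 hybridoma libraries, not over the 8 alone. The 5′ ends of capped RNA were sequenced (CAGE, cap analysis of gene expression), and levels are in RPM, tags per 1e6 tags of the library.

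PD-1 is an inhibitory receptor of T cells. When its ligand binds, its cytoplasmic tail recruits phosphatases, SHP-2 above all, that act on CD28 and on the kinases next to the TCR. TCR signals reach the nucleus through the Ras, ERK, calcium and NF-kB routes, and the first genes to respond are the immediate early genes, among them the EGR zinc finger factors and the NR4A nuclear receptors. NAB proteins bind EGR factors and repress their targets, and NAB2 is itself induced by them, so that the pair forms a feedback loop.

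Library totals lay between 14.4 and 18.02 M tags (M, 1e6) with engagement and between 13.4 and 17.9 M without, so that 1 tag was worth 0.0555 to 0.0745 RPM. The share of named tags that fell on the top 10 genes was 7.80 to 8.65% with engagement and 7.39 to 8.39% without. Of 7 T cell markers, 6 were in the table, all but Cd4, and their summed level at 10 nM was 922.6 to 986.7 RPM with engagement and 968.8 to 1067.7 RPM without. At 1 nM it was 912.8 to 931.8 RPM with engagement and 953.8 to 967.3 RPM without. The engaged library had the lower sum in each pair, a difference that was not tested.

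At the weak doses, engagement lowered a small set of genes of the first TCR response. Averaged over 1 and 10 nM, 11 of 10094 genes differed (0.109%): Nr4a1, Egr1, Egr3, Nab2, Egr2, Tnfrsf9, Gm12481, Lef1 and Ccl1 were lower with engagement (9 genes, 0.0892%) and Txndc9 and 1810006K21Rik were higher (2 genes, 0.0198%). At 10 nM alone, 15 genes differed (0.149%), 14 of them lower (0.139%) and 1 higher (0.00991%). At 1 nM alone only 4 genes passed (0.0396%), Txndc9 and 1810006K21Rik higher and Mknk2 and Gm12481 lower, and none of these is an immediate early gene. The test was limma on log2(RPM + 1) with each pair of libraries as a block, and a gene was called where its Benjamini-Hochberg adjusted p over all genes was under 0.05. At an unadjusted p under 0.05, 7.15% of genes passed for the mean, 5.13% at 10 nM and 5.92% at 1 nM. Without the block, 3 genes passed for the mean (Egr2, Egr3 and Nr4a1), 4 at 10 nM (the same with Tnfrsf9) and 0 at 1 nM. Fitted on the 8 libraries alone, 8 of the 15 genes at 10 nM and 7 of the 11 for the mean were called, and Ier2, Junb, Lef1, Pdcd1, Plk3, RNase_MRP and Trib1 were not called at 10 nM. That fit called 12 genes lower and 9 higher at 10 nM, and the fit without the dose 0 libraries 15 lower and 6 higher, so that the near absence of higher genes depends on which libraries share the estimate of spread. The log2(RPM + 1) scale understates the change of genes near 1 RPM. In bulk RNA, fewer responding cells and less RNA per cell cannot be told apart.

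**Figure D1:**
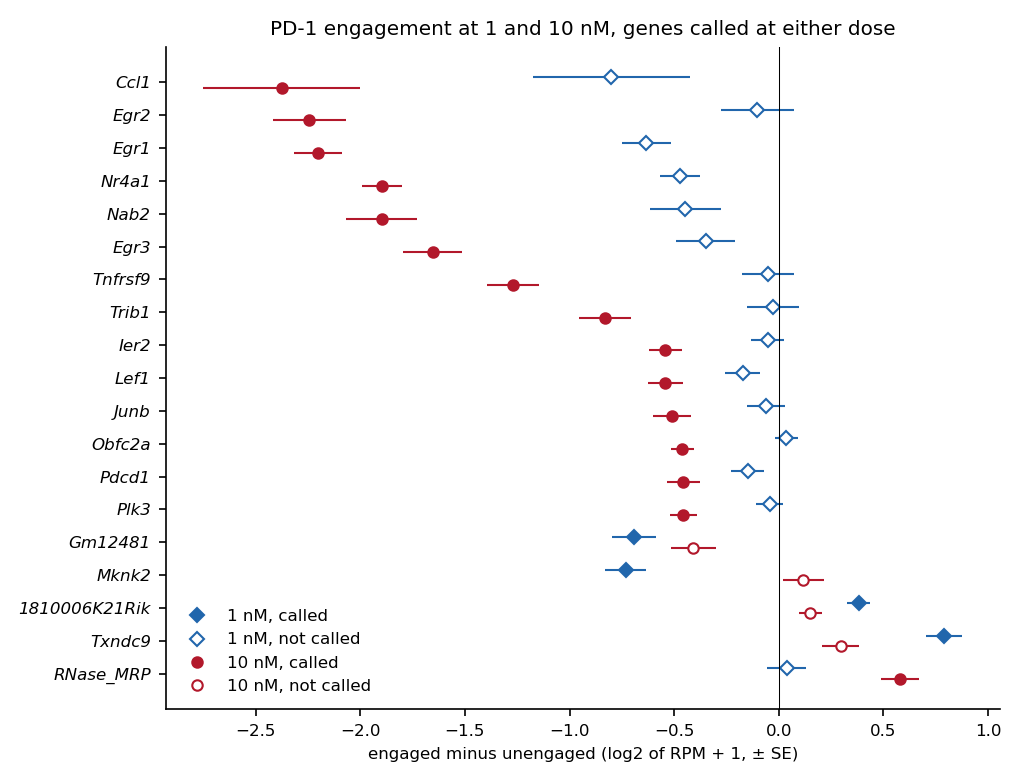
Engaged minus unengaged level on the log2(RPM + 1) scale at 10 nM (circles) and 1 nM (diamonds) for each gene called at either dose, with SE bars, n = 2 pairs per dose and filled symbols for called genes. The lowest values at 10 nM are those of Ccl1 (-2.38), Egr2 (-2.24) and Egr1 (-2.20), and the 4 genes called at 1 nM are not called at 10 nM.

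Egr1, the EGR factor that marks ERK signalling, was the most abundant EGR gene. At 10 nM it stood at 10.44 and 12.75 RPM in engaged cells (replicates 1 and 2), against 57.13 and 56.26 RPM in unengaged cells. At 1 nM it stood at 3.47 and 3.31 RPM in engaged cells and at 6.26 and 5.38 RPM in unengaged cells. The groups did not overlap at either dose, and the engaged level at 10 nM was 18.3 and 22.7% of the unengaged level of the same replicate. The log2 difference was -2.20 ± 0.12 at 10 nM (SE, limma adjusted p = 1.72e-07) and -0.63 ± 0.12 at 1 nM (adjusted p = 0.136).

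Egr2 and Egr3, which are known to restrain T cell activation as well as to follow it, were near the detection limit at 1 nM. Egr2 had 1.78 and 1.59 RPM in engaged cells at 10 nM, against 11.20 and 12.24 RPM in unengaged cells. Egr3 had 1.72 and 1.73 RPM in engaged cells at 10 nM, against 7.72 and 7.44 RPM in unengaged cells. Both genes were thus far lower in each engaged library than in either unengaged one, by -2.24 ± 0.17 for Egr2 and by -1.65 ± 0.14 for Egr3 on the log2 scale (limma adjusted p = 1.69e-05 and 4.48e-05). At 1 nM, Egr2 had 5 and 2 tags in engaged cells and 6 and 3 tags in unengaged cells, while Egr3 had 0 tags in both engaged libraries and 3 and 5 tags in the unengaged ones. A difference at 1 nM was not detectable at this depth for either gene.

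Nr4a1, the orphan nuclear receptor Nur77 whose level follows the strength of the TCR signal, had 26.25 and 17.01 RPM in engaged cells at 10 nM, against 82.63 and 80.53 RPM in unengaged cells. At 1 nM it had 18.44 and 10.61 RPM in engaged cells and 25.05 and 15.67 RPM in unengaged cells. The 1 nM groups overlapped, although the engaged library was the lower one in both pairs. Its log2 difference was -1.90 ± 0.10 at 10 nM (limma adjusted p = 1.72e-07), -0.47 ± 0.10 at 1 nM (adjusted p = 0.251) and -1.19 ± 0.07 for the mean of both doses (adjusted p = 5.9e-07). Its relative Nr4a3 was at 3.11 and 2.46 RPM in engaged cells and at 4.18 and 3.30 RPM in unengaged cells at 10 nM, and its difference of -0.32 ± 0.17 did not pass (adjusted p = 0.956). The third family member, Nr4a2, was not analysed here.

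**Figure D2:**
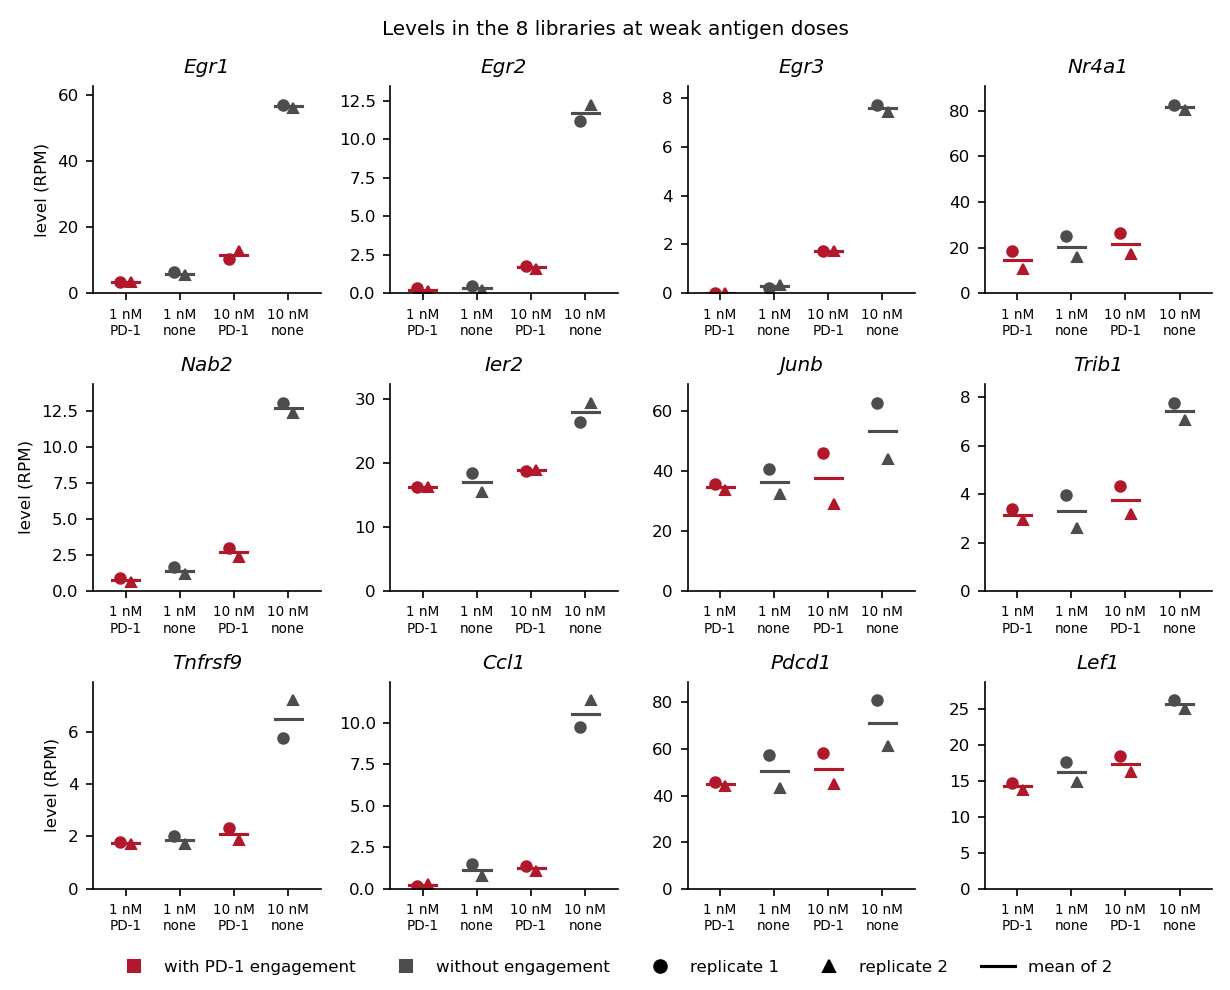
Level in RPM of 12 genes in each of the 8 libraries, with engaged libraries in red to the left of unengaged ones in grey at each dose, replicates 1 and 2 as circles and triangles and the mean of 2 as a line. For Egr1, Egr2, Egr3, Nr4a1, Nab2, Tnfrsf9 and Ccl1 the unengaged 10 nM libraries stand apart from the other 6.

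Nab2, the EGR co-repressor, was lower as well. It had 3 and 2.39 RPM in engaged cells at 10 nM, against 13.09 and 12.36 RPM in unengaged cells, a log2 difference of -1.90 ± 0.17 (limma adjusted p = 6.1e-05). At 1 nM it had 0.90 and 0.63 RPM in engaged cells and 1.64 and 1.18 RPM in unengaged cells (-0.45 ± 0.17, adjusted p = 0.815). The groups did not overlap at either dose. The call for Nab2, like that for Egr1, was lost without the pair block, and those of Egr2, Egr3 and Nr4a1 at 10 nM were not. For the mean of both doses, edgeR did not call Egr2 or Egr3.

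Ier2 and Junb were lower by a smaller amount. Ier2, an immediate early nuclear protein, had 18.82 and 18.93 RPM in engaged cells at 10 nM and 26.51 and 29.47 RPM in unengaged cells (-0.54 ± 0.08, limma adjusted p = 0.00856). Junb, an AP-1 subunit, had 45.96 and 29.16 RPM in engaged cells and 62.82 and 44.01 RPM in unengaged cells (-0.51 ± 0.09, adjusted p = 0.0421). The Junb groups overlapped, because replicate 2 was lower than replicate 1 in both, and the difference shows within pairs, at -0.44 in pair 1 and -0.58 in pair 2. The Ier2 difference was -0.47 in pair 1 and -0.61 in pair 2. With either 10 nM pair left out, so that the value of the other pair stands alone, neither gene was called. Junb was also not called with quantile normalization or with edgeR's TMM factors.

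Over the list of immediate early and TCR-induced transcription factors, 21 of 24 members were tested. At 10 nM 6 were called lower and none higher, where 0.139% of all genes were called lower, and 19 of the 21 differences were below 0. The list's median was -0.17, beside -0.02 for all genes. Both engaged libraries lay below both unengaged ones for 8 of the 21, as they did for 12.2% of all genes, and above both for none (9.14% of all genes). Over all 4 pairs at both doses, 11.9% of all genes were lower with engagement in every pair and 5.2% were higher in every pair. Members that were not called include Fos (-0.38 ± 0.21), Fosb (-0.17 ± 0.23) and Myc (-0.05 ± 0.07). Myc, a transcription factor of dividing cells, had 65.10 and 75.53 RPM in engaged cells and 69.28 and 76.44 RPM in unengaged cells at 10 nM. The list was chosen with results of these libraries known, so that its count is no independent evidence of a direction.

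RefSeq promoter windows (GRCm38.p6, 250 bases before to 50 after a gene's start, plus strand of the gene) were looked up for 14 of the called genes and found for 11. Of the 11 windows, 6 held a match to any of 7 motifs. The share of all windows with a match to any of the 7 was not measured, so that this count has no background beside it. Shown are the windows of 4 TCR response genes, picked from the 6 with a match, so that the letters near their starts can be read. The coordinates of the mm9 clusters were not converted to this build. Where a gene had several windows and clusters, 1 window was chosen by comparing the spacing of its clusters with that of its listed starts. The capitals mark matches, on either strand, to a CArG box (bound by serum response factor), a cAMP response element (TGACGTCA), an AP-1 site (TGANTCA), an EGR site (GCGNGGGCG), an NBRE (AAAGGTCA, bound by NR4A receptors), an ETS site (CCGGAAG) or a kappa B site.
Egr2, chr10:67537620-67537919, plus strand: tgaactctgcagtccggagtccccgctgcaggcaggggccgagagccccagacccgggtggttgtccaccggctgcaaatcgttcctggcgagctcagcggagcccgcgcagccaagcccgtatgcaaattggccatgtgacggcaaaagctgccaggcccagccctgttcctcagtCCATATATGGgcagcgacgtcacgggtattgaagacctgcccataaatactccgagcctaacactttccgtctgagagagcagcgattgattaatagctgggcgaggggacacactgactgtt
Nr4a1, chr15:101266596-101266895, plus strand: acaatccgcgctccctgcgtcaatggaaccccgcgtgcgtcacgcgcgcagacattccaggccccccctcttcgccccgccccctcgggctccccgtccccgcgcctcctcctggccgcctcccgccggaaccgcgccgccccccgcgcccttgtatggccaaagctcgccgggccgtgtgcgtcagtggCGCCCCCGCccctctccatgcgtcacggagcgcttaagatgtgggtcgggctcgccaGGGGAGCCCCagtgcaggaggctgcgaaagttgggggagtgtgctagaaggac
Tnfrsf9, chr4:150927749-150928048, plus strand: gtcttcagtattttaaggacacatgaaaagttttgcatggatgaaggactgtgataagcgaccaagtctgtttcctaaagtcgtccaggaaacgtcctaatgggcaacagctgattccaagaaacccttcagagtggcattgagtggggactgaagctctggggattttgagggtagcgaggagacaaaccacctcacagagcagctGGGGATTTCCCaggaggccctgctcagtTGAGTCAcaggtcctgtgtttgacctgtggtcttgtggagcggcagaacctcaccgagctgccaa
Ccl1, chr11:82179763-82180062, minus strand: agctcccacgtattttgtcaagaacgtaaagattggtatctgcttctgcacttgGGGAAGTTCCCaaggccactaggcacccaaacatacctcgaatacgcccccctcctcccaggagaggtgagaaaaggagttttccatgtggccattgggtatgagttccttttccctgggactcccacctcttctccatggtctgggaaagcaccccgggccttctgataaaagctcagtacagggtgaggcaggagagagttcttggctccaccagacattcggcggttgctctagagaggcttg
The Egr2 window holds 1 CArG box, whose last base lies 64 bases before the start. The Nr4a1 window holds 1 EGR site and 1 kappa B match over the start itself. The Tnfrsf9 window holds a pair of overlapping kappa B matches followed by 1 AP-1 site, and the Ccl1 window a pair of overlapping kappa B matches. Of 32841 promoter windows of this length, 1.63% hold a CArG box, 1.79% a cAMP response element, 7.81% an AP-1 site, 5.55% an EGR site, 1.51% an NBRE, 8.86% an ETS site and 8.46% a kappa B site. The Lef1 window held a CArG box and that of Obfc2a an ETS site, while those of Nab2, Junb, Plk3, Pdcd1 and Txndc9 held no match to any of the 7 motifs. A match describes letters and does not show that a factor binds. RefSeq lists 5 windows for Egr2, and the main mm9 cluster of the gene held 97.6% of its RPM. For Tnfrsf9 RefSeq lists 2 windows, 7844 bases apart, and the main mm9 cluster held 56.3% of the RPM, with the next most abundant 13384 bases away, so that the 1 window shown cannot hold all of the starts counted.

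Among surface molecules and secreted factors, Tnfrsf9 and Ccl1 were lower with engagement. Tnfrsf9, the costimulatory receptor 4-1BB, had 2.33 and 1.86 RPM in engaged cells at 10 nM, against 5.76 and 7.21 RPM in unengaged cells (-1.27 ± 0.13, limma adjusted p = 0.000167). At 1 nM it had 1.80 and 1.71 RPM in engaged cells and 2.01 and 1.71 RPM in unengaged cells. Engaged cells at 10 nM therefore stood close to the level of both 1 nM groups, and only the unengaged 10 nM libraries stood apart. The mean over both doses was -0.66 ± 0.09 (adjusted p = 0.00513), and without the first 1 nM pair it was -0.64 and was not called.

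Ccl1, a chemokine that binds the receptor CCR8, was also lower with engagement at 10 nM. It had 1.39 and 1.06 RPM in engaged cells at 10 nM, against 9.74 and 11.35 RPM in unengaged cells, and 0.14 and 0.29 RPM in engaged cells at 1 nM, against 1.49 and 0.79 RPM in unengaged cells. The groups did not overlap at either dose. The difference was -2.38 ± 0.37 at 10 nM (limma adjusted p = 0.0169) and -1.59 ± 0.26 for the mean (adjusted p = 0.0329). In pairs 1 and 2 at 10 nM it was -2.17 and -2.58, and with either pair left out the call at 10 nM was lost. The mean was not called without any one of the 4 pairs, at -1.42 and -1.75 without the 1 nM pairs and -1.69 and -1.48 without the 10 nM pairs. Ccl1 also varied at dose 0, where it had 8.35 RPM in 1 unengaged library and 0.24 RPM in the other.

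The rest of these 2 lists gave no further call. Of 17 costimulatory and activation molecules, 1 was called lower at 10 nM, where 0.139% of all genes were. The list median was -0.14, beside -0.02 for all genes. Cd69, an early activation antigen, had 19.15 and 13.88 RPM in engaged cells and 24.29 and 25.39 RPM in unengaged cells, without overlap, and -0.58 ± 0.11 did not pass (limma adjusted p = 0.0805). Of 16 cytokines and chemokines, 1 was called lower and the list median was -0.02, as for all genes. Tnf, the inflammatory cytokine, had 21.87 and 22.98 RPM in engaged cells and 25.62 and 31.65 RPM in unengaged cells at 10 nM (-0.33 ± 0.09, adjusted p = 0.45). Il2, the T cell growth factor, had 0 tags in all 8 libraries, and 3 tags would be 0.1665 to 0.2236 RPM, so that its level was not detectable at this depth.

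Pdcd1, which encodes PD-1 itself, was lower at 10 nM. It had 58.11 and 44.84 RPM in engaged cells and 80.85 and 61.40 RPM in unengaged cells (-0.46 ± 0.08, limma adjusted p = 0.0376). The difference was -0.47 in pair 1 and -0.44 in pair 2, and neither pair alone gave a call. Cd274, the ligand PD-L1, had 4.55 and 6.58 RPM in engaged cells and 6.83 and 11.58 RPM in unengaged cells at 10 nM. Its groups did not overlap, and -0.61 ± 0.11 missed the threshold (adjusted p = 0.0651). Of 7 inhibitory receptors and ligands tested, Pdcd1 was the 1 called, where 0.139% of all genes were called lower. The list's median was -0.28, beside -0.02 for all genes, and 6 of the 7 were below 0.

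Feedback regulators other than Nab2 gave no call. Of 21 tested, 15 were below 0 at 10 nM, with a median of -0.07, beside -0.02 for all genes. The nearest to a call was Dusp4, a phosphatase of MAP kinases, at -0.44 (limma adjusted p = 0.223). Nab1, the paralog of Nab2, had 21.93 and 23.92 RPM in engaged cells and 27.60 and 32.16 RPM in unengaged cells at 10 nM (-0.37 ± 0.10, adjusted p = 0.41).

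Outside the lists of TCR response genes, 3 regulators were lower at 10 nM. Obfc2a (also Nabp1), a single-stranded DNA-binding protein, had 152.36 and 133.00 RPM in engaged cells and 203.65 and 189.35 RPM in unengaged cells (-0.46 ± 0.06, limma adjusted p = 0.00168). Plk3, a polo-like kinase of the stress response, had 15.37 and 15.01 RPM in engaged cells and 20.37 and 22.09 RPM in unengaged cells (-0.46 ± 0.06, adjusted p = 0.00725). Trib1, a pseudokinase adaptor of the COP1 ubiquitin ligase, had 4.33 and 3.19 RPM in engaged cells and 7.78 and 7.05 RPM in unengaged cells (-0.83 ± 0.13, adjusted p = 0.0127). None of these groups overlapped. Without the second 10 nM pair, Obfc2a stood at -0.42, Plk3 at -0.38 and Trib1 at -0.72 and none was called, and without the first pair Trib1 stood at -0.94 and was not called either.

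Lef1 is a transcription factor of the TCF family that is high in naive T cells. It was the 1 member called of 14 resting T cell genes, where 0.139% of all genes were called lower at 10 nM. It had 18.43 and 16.21 RPM in engaged cells and 26.19 and 25.06 RPM in unengaged cells at 10 nM, without overlap. The difference was -0.54 ± 0.08 at 10 nM (limma adjusted p = 0.0136) and -0.36 ± 0.06 for the mean (adjusted p = 0.0307). With pair 1 or pair 2 at 10 nM alone it was -0.48 and -0.60 and not called, and the mean was -0.32, -0.39, -0.39 and -0.33 without each of the 4 pairs and not called. Lef1 uses several starts, and its most abundant cluster held 32.6% of its RPM. With that cluster in place of the sum, Lef1 was not called at 10 nM or for the mean.

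RNase_MRP, the RNA of a ribonucleoprotein that processes ribosomal RNA, was the 1 gene higher at 10 nM. It had 45.96 and 95.99 RPM in engaged cells and 35.49 and 54.91 RPM in unengaged cells (0.58 ± 0.09, limma adjusted p = 0.0178). The groups overlapped, and the difference was 0.36 in pair 1, which was not called alone, and 0.79 in pair 2.

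At 1 nM the 4 called genes did not belong to the TCR response lists. Txndc9, a thioredoxin-domain protein, had 32.10 and 27.03 RPM in engaged cells, against 17.07 and 16.20 RPM in unengaged cells (0.79 ± 0.09, limma adjusted p = 0.00364). At 10 nM it had 40.46 and 38.60 RPM in engaged cells and 34.80 and 29.47 RPM in unengaged cells, so that the unengaged 1 nM libraries were the 2 low ones of the 8. Mknk2, a kinase of the translation factor eIF4E, had 101.84 and 74.54 RPM in engaged cells at 1 nM, against 181.88 and 116.20 RPM in unengaged cells (-0.73 ± 0.10, adjusted p = 0.0206). The higher of the engaged values lay below the lower of the unengaged ones. At 10 nM, Mknk2 had 88.36 and 77.39 RPM in engaged cells and 81.55 and 71.08 RPM in unengaged cells.

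The other 2 genes called at 1 nM have no described role here. Gm12481 had 203.34 and 205.13 RPM in engaged cells and 320.68 and 340.91 RPM in unengaged cells (-0.69 ± 0.11, limma adjusted p = 0.0411). At 10 nM it had 188.33 and 304.38 RPM in engaged cells and 319.50 and 316.96 RPM in unengaged cells, so that engaged replicate 1 was the low library. The gene 1810006K21Rik had 301.51 and 311.95 RPM in engaged cells and 224.37 and 246.10 RPM in unengaged cells at 1 nM (0.38 ± 0.05, adjusted p = 0.0239). In pairs 1 and 2 at 1 nM the differences were 0.87 and 0.70 for Txndc9, -0.83 and -0.63 for Mknk2, -0.65 and -0.73 for Gm12481 and 0.42 and 0.34 for 1810006K21Rik. With only 1 of the 1 nM pairs, Mknk2, Gm12481 and 1810006K21Rik were not called, and Txndc9 was not called with pair 2 alone. For the mean of both doses, 1810006K21Rik was not called without the first pair of either dose (0.25 at 1 nM, 0.23 at 10 nM), nor was Gm12481 without the second 1 nM pair (-0.53).

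The effect of engagement itself differed between the doses for 8 genes (0.0793% of those tested, 0.0693% more negative at 10 nM, 4.48% at an unadjusted p under 0.05), by the test of the 10 nM effect minus the 1 nM effect. The effect was more negative at 10 nM for Nr4a1 (-1.43 ± 0.14, limma adjusted p = 0.000666), Egr1 (-1.57 ± 0.16, adjusted p = 0.00103), Egr2 (-2.14 ± 0.25, adjusted p = 0.00209), Tnfrsf9 (-1.22 ± 0.18, adjusted p = 0.0221), Egr3, Obfc2a and Nab2. It was more positive at 10 nM for Mknk2. None of the 8 was called without the pair block. With the block, the calls for Nr4a1, Egr1 and Egr2 held with each of the 4 pairs left out, and those of Egr3, Obfc2a, Nab2 and Mknk2 were lost whichever pair was left out. Without 1 pair the differences were -1.37 to -1.24 for Egr3, -0.54 to -0.45 for Obfc2a, -1.53 to -1.37 for Nab2 and 0.75 to 0.95 for Mknk2. The call for Tnfrsf9 was lost without either 1 nM pair or the second 10 nM pair, at -1.27, -1.17 and -0.97. Egr2 was not called with a pseudocount of 0.25 or by DESeq2. The 8 libraries alone gave 4 genes more negative and 7 more positive at 10 nM, and DESeq2 6 and 6. By edgeR, 2 genes passed with library totals (Egr1 and Nr4a1) and 1 with TMM factors (Nr4a1), and the fitted value of Egr3 was then of the opposite sign, since it had 0 tags in both engaged 1 nM libraries.

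The antigen step between the weak doses was tested with and without engagement. From 1 to 10 nM with engagement, 1 gene was called, Egr3, higher at 10 nM (1.45 ± 0.20 on the log2 scale, limma adjusted p = 0.00727, 0.00991% of genes), and that call was lost when any 1 of its 4 libraries was left out. Without engagement the same step gave 6 calls, all higher at 10 nM (0.0594%): Egr3 (2.75 ± 0.20), Egr2 (3.27 ± 0.26), Egr1 (3.08 ± 0.40), Nr4a1 (1.99 ± 0.26), Tnfrsf9 (1.38 ± 0.19) and Nab2 (2.52 ± 0.45). Both steps were fitted with 1 mean per group. All 6 genes are among the 14 lower with engagement at 10 nM, and both comparisons share the unengaged 10 nM libraries. The Nab2 call was likewise lost without any 1 of the 4 unengaged libraries and with the replicate number as a block, and that of Tnfrsf9 without unengaged 10 nM replicate 2.

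In RPM, the rise between the doses in engaged cells was 13.7 and 18.6% of the rise in unengaged cells for Egr1 in replicates 1 and 2. It was 13.3 and 12.3% for Egr2, 22.9 and 24.3% for Egr3, and 18.3 and 15.7% for Nab2. For Nr4a1 it was 13.6 and 9.87%, for Tnfrsf9 14.1 and 2.73%, and for Ccl1 15.2 and 7.29%. Each of these 7 genes thus kept less than 25% of its antigen step in both replicates. These were picked as lower with engagement at 10 nM in the same libraries, which favours a small share. The Ccl1 step without engagement was not called (limma adjusted p = 0.179). Among the other genes lower at 10 nM, the share was 24.3 and 6.32% for Trib1 and 32.4 and 18.7% for Ier2. It was 43.0 and 23.8% for Lef1, 52.9 and 3.56% for Pdcd1 and 45.9 and -37.0% for Junb. For Obfc2a it was 4.61 and -0.18%, and for Plk3 -841 and -15.4%. Engaged cells at 10 nM were set against unengaged cells at 1 nM, a 10-fold lower dose, with 1 mean per group. This gave 0 calls by limma, with 98 genes (0.971%) at an unadjusted p under 0.05, 0 calls by edgeR and 12 by DESeq2. The absence of a limma call does not show equal levels. For Egr1, Egr2, Egr3 and Nab2 both engaged libraries lay above both unengaged ones. The share of all genes that did so was not measured. Egr1 had 10.44 and 12.75 RPM against 6.26 and 5.38 RPM. Egr3 had 1.72 and 1.73 RPM against 0.22 and 0.33 RPM (limma adjusted p = 0.265). For Nr4a1, Tnfrsf9 and Ccl1 the same libraries overlapped.

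**Figure D3:**
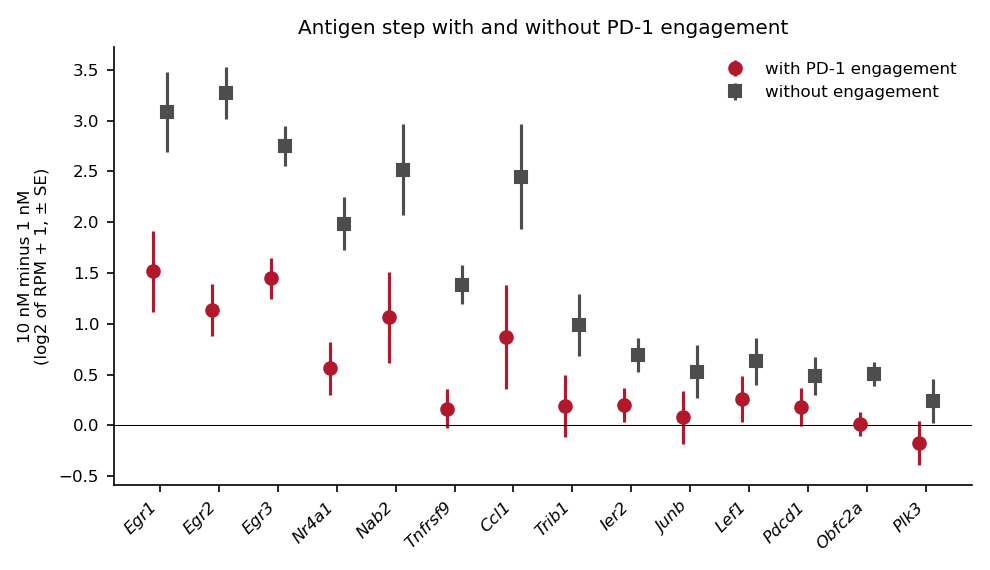
Level at 10 nM minus level at 1 nM on the log2(RPM + 1) scale, with SE bars and n = 2 libraries per group, for the 14 genes lower with engagement at 10 nM, with engagement in red (circles, left) and without in grey (squares, right). For Egr2 the step is 1.13 with engagement and 3.27 without. The red value lies below the grey one for each of the 14 genes, an order favoured by picking them as lower with engagement at 10 nM in the same libraries.

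Set beside the other doses of the hybridoma in the same fit, 13 of the 14 genes lower at 10 nM were also called lower at 100 nM, where 3.76% of all genes were. At 1000 nM 3 of them were called lower (2.02% of genes) and at 10000 nM 5 (1.6%). With no antigen no gene was called in either direction, which does not show that there was no difference. Nr4a1 stood at -0.68 ± 0.10 (limma adjusted p = 0.0604), Egr2 at -0.79 ± 0.17 and Ccl1 at -1.12 ± 0.37, each further below 0 than at 1 nM (-0.47, -0.10 and -0.80). For Egr1 the log2 difference was -0.80 ± 0.12 at 100 nM, beside -2.20 at 10 nM, and for Nab2 it was -0.87 ± 0.17 beside -1.90. For Nr4a1 it was -1.31 ± 0.10 at 100 nM, and for Ccl1 -2.30 ± 0.37. Lef1 was the 1 gene of the 14 not called at 100 nM (-0.23 ± 0.08, limma adjusted p = 0.138), and it was called higher at 1000 nM (0.35 ± 0.08, adjusted p = 0.0206) and at 10000 nM (0.28 ± 0.07, adjusted p = 0.0398). Of all genes, 0.456% were called higher at 100 nM, 5.32% at 1000 nM and 0.921% at 10000 nM. RNase_MRP, the 1 gene higher at 10 nM, was called higher at 100 nM (0.36 ± 0.09, limma adjusted p = 0.0444). It was called lower at 1000 nM (-0.66 ± 0.09, limma adjusted p = 0.00173). Whether the effects at 10 and 100 nM differ was not tested. Nr4a1 had 17.98 and 25.59 RPM in engaged cells and 28.09 and 43.82 RPM in unengaged cells with no antigen.

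Single tag clusters, each a stretch of start sites on 1 strand, were tested apart from the genes. Of 18014 clusters, 14 differed for the mean of 1 and 10 nM (0.0777%), 10 lower (0.0555%) and 4 higher (0.0222%), and 39 at 10 nM (0.216%). Without the pair block 3 clusters passed. Of 4473 clusters without a gene symbol, 4 were called for the mean (0.0894%). Coordinates of clusters are those of the deposited table, in mm9.

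For Nab1 the clusters are given side by side. Its most abundant cluster (chr1:52557224-52557301, minus strand) had 20.37 and 21.66 RPM in engaged cells and 23.35 and 22.82 RPM in unengaged cells at 10 nM, and its difference for the mean of both doses was not called (-0.16 ± 0.07). The next cluster downstream (chr1:52557086-52557125) had 0.89 and 1.53 RPM in engaged cells and 2.66 and 5.76 RPM in unengaged cells at 10 nM, and 0.21 and 0.23 RPM in engaged cells and 0.60 and 0.66 RPM in unengaged cells at 1 nM. It was called lower (-0.80 ± 0.10, limma adjusted p = 0.00708), with -0.79 and no call without the second 1 nM pair. Another cluster, 1 base long, (chr1:52547599) had 0.56 and 0.73 RPM in engaged cells and 1.46 and 3.13 RPM in unengaged cells at 10 nM, where it was called (-0.96 ± 0.17, adjusted p = 0.0477). The difference between the Nab1 clusters was not tested.

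The 4 called clusters without a symbol included 3 that were lower. The first (chr15:101084645-101084748, plus strand) lies 12583 bases from the nearest named cluster, that of Nr4a1, and had 5.05 and 4.58 RPM in engaged cells and 8.60 and 7.10 RPM in unengaged cells at 10 nM. At 1 nM it had 5.13 and 4.22 RPM in engaged cells and 7.68 and 6.16 RPM in unengaged cells, so that it was lower with engagement at both doses (-0.54 ± 0.07 for the mean, limma adjusted p = 0.00708). The second (chr12:111631791-111631906, minus strand), 53520 bases from Ppp2r5c, had 0.17 and 0.07 RPM in engaged cells and 1.46 and 2.13 RPM in unengaged cells at 10 nM, and was at 0 in both engaged libraries and 1 unengaged library at 1 nM. The last of them (chr15:59973458-59973461, plus strand) had 1.28 and 0.73 RPM in engaged cells and 4.74 and 4.47 RPM in unengaged cells at 10 nM (-1.50 ± 0.13, limma adjusted p = 0.000144). Its nearest named cluster, that of Trib1, lies 493230.5 bases away. Each of the 3 lost its call for the mean when 1 or more of the pairs was left out. The first was at -0.53, -0.55 and -0.51 without 1 nM pair 1, 1 nM pair 2 and 10 nM pair 1, the second at -0.66 without 1 nM pair 2, and the last at -0.64, -0.66 and -0.57 without 1 nM pair 1, 1 nM pair 2 and 10 nM pair 2.

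**Figure D4:**
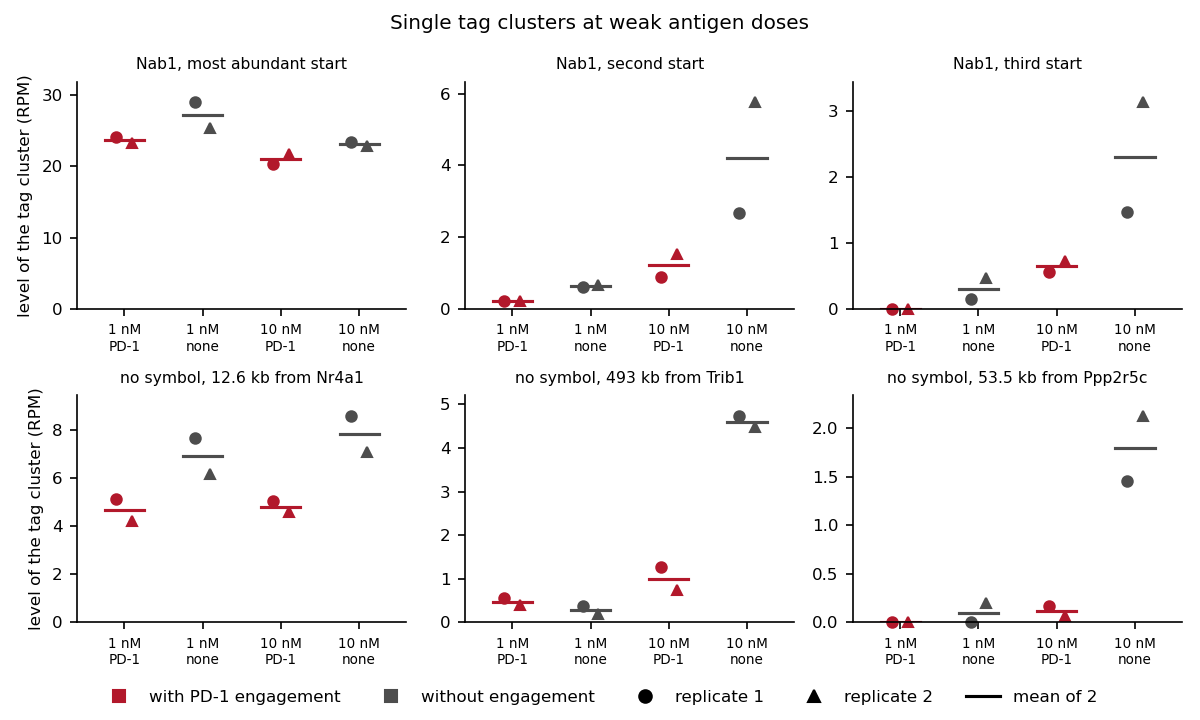
Level in RPM of single tag clusters in each of the 8 libraries, with the 3 most abundant clusters of Nab1 above and 3 called clusters without a gene symbol below, engaged libraries in red to the left of unengaged ones in grey at each dose, replicates as circles and triangles and the mean of 2 as a line. The most abundant Nab1 cluster lies at 20.37 to 29.00 RPM in all 8 libraries, while the second is highest in the unengaged 10 nM libraries.

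Higher with engagement for the mean was the fourth, a cluster on chromosome 17 (chr17:39983294-39983296, plus strand), with 184.33 and 274.09 RPM in engaged cells and 121.85 and 148.42 RPM in unengaged cells at 10 nM (0.51 ± 0.08 for the mean, limma adjusted p = 0.0443). It was at 0.37, 0.58 and 0.44, and not called, without 1 nM pair 1, 10 nM pair 1 and 10 nM pair 2. At 10 nM, 18 clusters were called higher (0.0999%) and 21 lower (0.117%), and of the clusters without a symbol 11 were higher (0.246%) and 5 lower (0.112%). Of 88 clusters without a symbol in the same stretch of chromosome 17, 6 were called higher at 10 nM (6.82%). The nearest named cluster there is that of AY036118. Whether the tags of this stretch are starts of capped RNA was not tested. Where sequences have near-identical copies elsewhere, the values depend on how the reads were placed (not given in the sources used here).

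Markers of B cells and antigen-presenting cells had a higher summed level with engagement at 10 nM, although no single gene passed. Of 26 such genes, 24 were in the table, none was called, and 23 of the 24 were above 0 at 10 nM with a median of 0.43, beside -0.02 for all genes. Both engaged libraries lay above both unengaged ones for 13 of the 24 at 10 nM, beside 9.14% of all genes. Their summed level at 10 nM was 334.7 to 347.8 RPM in engaged cells and 216.2 to 275.0 RPM in unengaged cells, and at 1 nM 220.9 to 227.9 RPM in engaged cells and 210.6 to 229.2 RPM in unengaged cells. With no antigen the sum varied far more, between 437.3 and 1402.5 RPM in engaged cells and between 178.0 and 1688.4 RPM in unengaged cells. Cd79a, part of the B cell receptor, was not at 0 on average over the 8 libraries (15.2 RPM). A B cell score, the mean log2(RPM + 1) of 8 B cell genes, was also taken for each library. At 10 nM it was 2.46 and 2.50 in engaged libraries and 1.82 and 2.30 in unengaged ones. With this score as a covariate over all 26 libraries, all 15 genes called at 10 nM were called again, as were 10 of the 11 called for the mean. The score was thus higher in both engaged libraries at 10 nM, and whether B cell content bears on the calls was not tested. Of 10 myeloid and 9 cytotoxic markers, only Cst3 and Gzma were in the table, and neither was called.

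The remaining lists held no called gene at 10 nM or for the mean. They were the NF-kB pathway (16 tested, median -0.07 at 10 nM), the calcium and NFAT pathway (18, -0.04), the TCR complex and proximal signalling (19, -0.05), the phosphatases and PI3 kinase path linked to PD-1 (12, -0.03), and effector and lineage factors (12, -0.01). Survival and death genes (13, -0.06), cell cycle genes (20, -0.01), ribosome biogenesis (19, -0.04) and glycolysis (13, -0.05) were alike in this. Nfkb2, an NF-kB subunit, had 32.02 and 29.64 RPM in engaged cells and 31.19 and 30.26 RPM in unengaged cells at 10 nM. Ccnb1, a mitotic cyclin, had 37.47 and 84.70 RPM in engaged cells and 94.14 and 84.89 RPM in unengaged cells, so that its value of -0.65 at 10 nM came from engaged replicate 1 alone. It was called only without the second 10 nM pair, at -1.31.

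**Figure D5:**
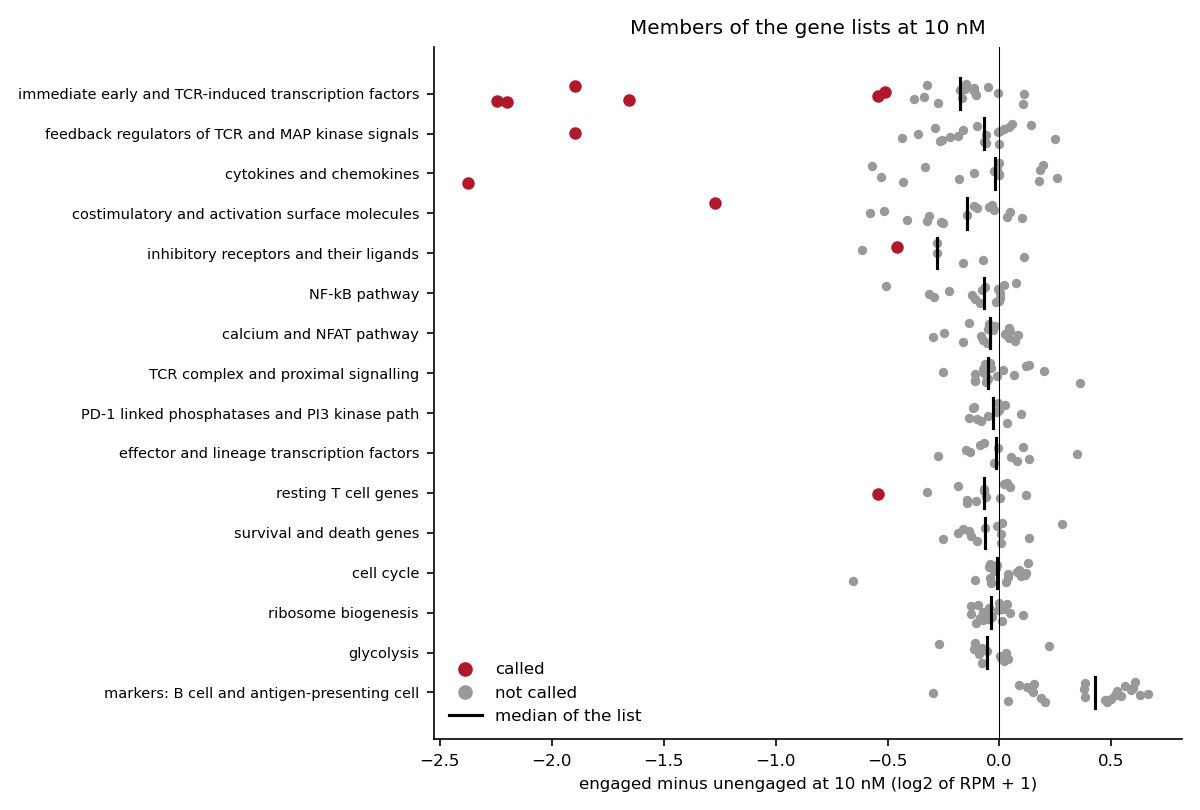
Engaged minus unengaged level at 10 nM on the log2(RPM + 1) scale for each tested member of the gene lists with more than 1 tested member, called members in red and the list's median as a line. Called members lie in the 6 lists from transcription factors to inhibitory receptors and resting T cell genes, and the markers of B and antigen-presenting cells have the highest median (0.43).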

How the data were processed

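Capped 5′ ends of total RNA were counted in 26 hybridoma libraries, 8 of them at 1 or 10 nM pOVA. The authors deposited RPM per tag cluster, tags scaled to 1e6 per library. The build mm9, HISAT2 2.0.5 and BWA 0.7.12 are named, per the submitters' processing notes; their roles, the clustering and the symbol assignment are not given in the sources used here. Values below 100 RPM were whole multiples of 1 tag (100% within 0.1 tag), which gave totals of 13.4 to 18.02 M tags, of which the clusters held 91.6 to 92.2%.

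The 18025 clusters include 4477 without a symbol and 356 with several. RPM was summed per symbol over the others (10098 genes, 16 with symbols turned into calendar dates). Every cluster reached at least 3.01 RPM in some library of the table, so rare transcripts are missing. Genes with at least 1 RPM in 2 libraries were tested (10094) with limma 3.58.1 (R 4.3.3, trend, two-sided) on log2(RPM + 1), with 13 pairs of dose and replicate number as a factor and engagement at each of 6 doses. All 26 libraries shared 1 estimate of the spread, with 7 residual degrees of freedom. Antigen steps used 1 mean per group. The replicate numbers come from the labels, and same-numbered engaged and unengaged libraries deviated together at every dose (correlations of 0.256 to 0.759). An exact two-sided sign-flip permutation test over 4 pairs cannot go below p = 0.125. Simulated counts with known changes were recovered before use.

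Named are all genes called for the mean or at 10 nM, 22 genes given by name, the (at most 4) most changed members of each list, and called clusters without a symbol. The comparison, members and lists were chosen with earlier results of these data known. Genes and clusters outside this rule (Dusp4, Cd79a, the Nab1 clusters, the clusters of chromosome 17, and the genes under other observations) were chosen after their values were seen. Alternatives used edgeR 4.0.16 and DESeq2 1.42.0 on the recovered whole tags. Promoter windows are RefSeq's.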

Additional observations from a re-analysis of the deposited data

Results flagged for a closer look

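For 8 genes the effect of engagement at 10 nM differed from that at 1 nM by the test of the difference (limma, adjusted over all genes, 2 pairs per dose). On the log2(RPM + 1) scale the 10 nM effect minus the 1 nM effect was -1.43 for Nr4a1 (adjusted p = 0.000666), -1.57 for Egr1 (adjusted p = 0.00103) and -2.14 for Egr2 (adjusted p = 0.00209). It was -1.22 for Tnfrsf9 (adjusted p = 0.0221), -1.31 for Egr3 (adjusted p = 0.0318), -0.50 for Obfc2a (adjusted p = 0.0383) and -1.45 for Nab2 (adjusted p = 0.0429). Mknk2, at 0.85 (adjusted p = 0.0429), was the 1 of the 8 whose effect was more positive at 10 nM, while the 8 libraries alone gave 7 higher and 4 lower and DESeq2 6 and 6. None of the 8 was called without the replicate block, and Egr2 was not called with a pseudocount of 0.25 or by DESeq2. At 1 nM, Egr2 and Egr3 had between 0 and 6 tags per library.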

How the results depend on the processing

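Without the replicate block that pairs engaged and unengaged libraries, 3 genes were called for the mean of 1 and 10 nM, 4 at 10 nM, 0 at 1 nM, 0 for the difference between doses and 3 clusters, against 11, 15, 4, 8 and 14. With the replicate number as a block, the antigen step gave 1 call with and 5 without engagement, against 1 and 6. With the 8 libraries alone, 12 genes were called at 1 nM, and without the dose 0 libraries 17 for the mean, 9 at 1 nM and 13 for the difference. A pseudocount of 0.25 gave 3 for the difference and 1 for engaged 10 nM against unengaged 1 nM, and a pseudocount of 4 gave 4 for the difference, 0 for the engaged step and 9 clusters. A filter of at least 5 RPM in 4 of the 8 libraries removes Egr2, Egr3, Nab2, Tnfrsf9, Ccl1 and Trib1, which are then not tested. With it the counts were 6 for the mean, 9 at 10 nM, 2 for the difference, 0 and 2 for the steps with and without engagement, and 7 clusters. edgeR with library totals called 8 at 1 nM and 2 for the difference, and with TMM factors 1 for the difference and 10 for the unengaged step. At 10 nM both edgeR fits called 3 higher and 14 lower, against 1 and 14. DESeq2 called 17 for the mean, 9 at 1 nM, 8 and 18 for the steps with and without engagement (5 and 11 of them higher) and 12 for engaged 10 nM against unengaged 1 nM, and at 10 nM 5 higher and 14 lower. With the B cell covariate 7 were called at 1 nM. Quantile normalization gave 2 higher and 1 lower at 1 nM, against 2 and 2. Leaving out 1 pair gave 10 to 16 calls for the mean, 12 to 15 at 10 nM, 2 to 7 at 1 nM, 4 to 8 for the difference and 11 to 31 clusters, the 31 (16 higher, 15 lower, against 4 and 10) without 10 nM replicate 2. Of the 15 genes at 10 nM, 9 and 6 were called again without 10 nM replicates 1 and 2, and of the 4 at 1 nM, 0 and 1 without 1 nM replicates 1 and 2. Leaving out 1 library gave 1 to 2 and 4 to 8 calls for the steps with and without engagement and 1 to 3 for engaged 10 nM against unengaged 1 nM. For Egr3 the difference between doses was 2.94 and 2.97 by edgeR and 2.40 by DESeq2, of the opposite sign and not called; Egr3 had 0 tags in both engaged 1 nM libraries, where a fitted ratio is not bounded.

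Fitted on the 8 libraries alone, 21 genes were called at 10 nM (9 higher, 12 lower) and 15 for the mean, 8 and 7 of them among those of the report, and for the difference 7 were higher and 4 lower, against 1 and 7 (DESeq2, 6 and 6). Without the dose 0 libraries 6 were higher and 15 lower at 10 nM. Tnfrsf9 for the mean was not called with pseudocount 4, by edgeR or from its most abundant cluster, nor Plk3 at 10 nM by DESeq2. Nr4a1 at 10 nM was called in all 17 alternatives, and Egr2, Egr3 and Tnfrsf9 in all 16 in which they were tested. With 2 pairs per dose and 7 residual degrees of freedom shared over doses, small changes may be missed; a limit by level was not measured.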

Other observations

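Large differences without a call were common at 10 nM. Of 41 genes past 1 on the log2 scale in size, 17 were lower and 24 higher with engagement, and 7 were called, all of them lower. The other 34 include genes with 1 or more libraries far from the rest, named here after their values were seen. Hist1h4k, a histone H4 gene, had 3592.67 and 17.01 RPM in engaged cells and 22.08 and 17.78 RPM in unengaged cells at 10 nM, and 18.86 and 21.79 RPM in engaged cells and 3043.73 and 19.28 RPM in unengaged cells at 1 nM. Hist1h4j, another H4 gene, had 11.32 and 2522.21 RPM in engaged cells and 11.39 and 10.74 RPM in unengaged cells at 10 nM. The pseudogene Rpsa-ps10 had 12.37 and 10.83 RPM in engaged cells and 1065.28 and 923.76 RPM in unengaged cells at 10 nM, with 674.25 RPM in 1 engaged library at 1 nM and 10.67 to 12.98 RPM in the other 3 at that dose. Histone H4 genes and ribosomal protein pseudogenes have near-identical copies, and the way reads were divided between copies was not stated in the sources used here.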
